A study of Mus musculus with 24 samples.

Results

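BMAL1, the core activator of the circadian clock, and CHREBP, a glucose-responsive activator of glycolytic and lipogenic genes, were targeted by esiRNA separately and together in AML-12 cells, an established mouse hepatocyte line. The 16 libraries that form this 2 by 2 design, of 24 in the series, were chosen by their esiRNA label, and the question was which genes and functions departed from additivity. All 16 cultures received 0.25 mM palmitate, a saturated fatty acid, and an esiRNA (a mixture of short interfering RNAs cut from a longer double-stranded RNA) for the last 24 hours. The control group, CON, was given 200 nM of an *Egfp* esiRNA, which has no target in mouse. The single groups, BMAL1 and CHREBP, were each given 100 nM of the esiRNA they are named for. In BOTH the 2 esiRNAs were combined to a total of 200 nM. Each group had 4 libraries. The labels do not say whether libraries came from separate cultures, so the p-values measure the spread between these samples, which may be technical.

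The tested quantity was the interaction on the log2 scale, BOTH − BMAL1 − CHREBP + CON. An interaction of 0 means that *Bmal1* esiRNA multiplied a gene's level by the same factor with and without *Chrebp* esiRNA. The additive expectation for BOTH is then the BMAL1 mean multiplied by the CHREBP mean and divided by the CON mean. The doses limit what the contrast can separate. CON and BOTH carried 200 nM and both single groups carried 100 nM, so the interaction is also the contrast of the 200 nM groups with the 100 nM groups. An interaction between the silenced genes and a response to the total amount of esiRNA cannot be told apart here. The library positions in the labels placed the 4 groups in 2 blocks of rows and 2 columns of the plate, and an additive shift of a row block or a column cancels in this contrast.

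Total gene counts were 5570803 to 11237474 per library, with 14496 to 15644 genes detected, and the limits given below for single counts cover counting error only. Cell identity followed the label in part. All 14 hepatocyte markers had counts, with summed levels of 6050 to 6850 CPM (counts scaled to a fixed library total) over the 16 libraries. Most of that sum was the keratins *Krt18* (mean 4110 CPM) and *Krt8* (1710 CPM), which other simple epithelia express too, followed by *Ttr* (188 CPM) and *Hnf4a* (166 CPM). Defining secreted products were low, with *Alb* at 20.6, *Apob* at 2.98, *Afp* at 2.78, *Apoa1* at 0.947 and *Apoh* at 0.922 CPM. *Adgre1*, *Clec4f*, *Itgam*, *Lrat*, *Pdgfrb*, *Reln*, *Cdh5*, *Kdr*, *Lyve1* and *Stab2*, which mark macrophages, stellate cells and endothelium, had no count in any library, where 3 counts correspond to 0.267 to 0.539 CPM. The macrophage list was carried by *Cd14*, and summed to 71.1 to 101 CPM. Stellate and fibroblast markers summed to at most 1.34 CPM. The endothelial and biliary list was carried by the keratins *Krt19* and *Krt7* and was lowest in BOTH (274 to 371 CPM), against 352 to 428 with *Chrebp* esiRNA alone, 402 to 442 with *Bmal1* esiRNA alone and 418 to 460 in CON.

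The targeted genes were checked first, and both are expressed at low levels. *Bmal1*, listed as *Arntl* (chr7:113207465-113314126, mm10), had normalized counts of 58.2, 50, 42.6 and 30.6 in CON and 23.4, 22.6, 26.2 and 33.4 in BMAL1. It had 33.6, 44.5, 29.4 and 35.9 in CHREBP and 16.8, 31.3, 25.7 and 18.4 in BOTH. The 2 groups given *Bmal1* esiRNA had the lower means at each level of *Chrebp* esiRNA, but the ranges overlapped within each pair. *Chrebp*, listed as *Mlxipl* (chr5:135089890-135138382), had 39.1, 30.8, 45.1 and 29.4 in CON and 48.2, 31.2, 28.2 and 35.3 in BMAL1. It had 23.6, 33.2, 22.5 and 25.8 in CHREBP and 14.6, 20.6, 22.2 and 11.6 in BOTH. BOTH lay below CON, BMAL1 and CHREBP without overlap, narrowly so for CHREBP (22.2 against 22.5), while CHREBP overlapped CON. The *Chrebp* transcript was thus lower in BOTH than in CHREBP, so its level was not equal in the 2 groups given *Chrebp* esiRNA. The interaction was 0.15 for *Arntl* (SE 0.40) and −0.58 for *Mlxipl* (SE 0.42). Neither gene received a *Padj*, because their mean counts fell under the threshold of DESeq2's independent filtering.

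As background, interferon-stimulated genes are induced when cells sense double-stranded RNA through RIG-I-like receptors and OAS enzymes or receive type I or type II interferon. STAT proteins and interferon regulatory factors then bind short promoter elements, of which the interferon-stimulated response element (ISRE) is the best known. Their products block translation and viral replication (IFIT, OAS and Mx proteins), attack vacuoles (immunity-related GTPases, guanylate-binding proteins) and increase antigen presentation. Hepatocytes express this program readily.

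Of 9307 genes with a *Padj*, 204 had an interaction at *Padj* under 0.1 in DESeq2 (2.19%). BOTH was higher than the additive expectation for 167 of them (1.79%) and lower for 37 (0.398%). The median interaction over all 13883 genes fitted was −0.0004. An unadjusted p under 0.05 was found for 1079 genes. The size differed with direction. Interactions above 0 reached 3.77 with a median of 0.76, apart from *Oas3*, whose fitted 5.74 rests on 2 counts in BMAL1, and 65 of the 167 were at least 1 on the log2 scale. Interactions below 0 ran from −1.08 to −0.29 with a median of −0.508, and *N4bp2os*, an antisense transcript, was the 1 gene at or below −1. All 204 kept their direction when additivity was computed on linear counts in place of log2 values. Where BMAL1 was below CON and BOTH above CHREBP, or the reverse, both scales must give the same direction. That held for 166 positive and 35 negative genes, so this count is no test of the scale.

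The called genes followed 3 orders of the group means. For 135 of the 167 positive genes the order was BMAL1 lowest, then CON, then CHREBP, then BOTH highest, with a median interaction of 0.912. For 31 positive genes both single groups lay below CON and below BOTH (median 0.502). For 25 of the 37 negative genes both single groups lay above CON and above BOTH (median −0.532). The remaining 13 genes had other orders. Over all fitted genes, 8.98% had the order BMAL1, CON, CHREBP, BOTH, 13.0% had both singles below CON and BOTH, and 14.6% had both above, so that these orders are common where no interaction was called.

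**Figure D1:**
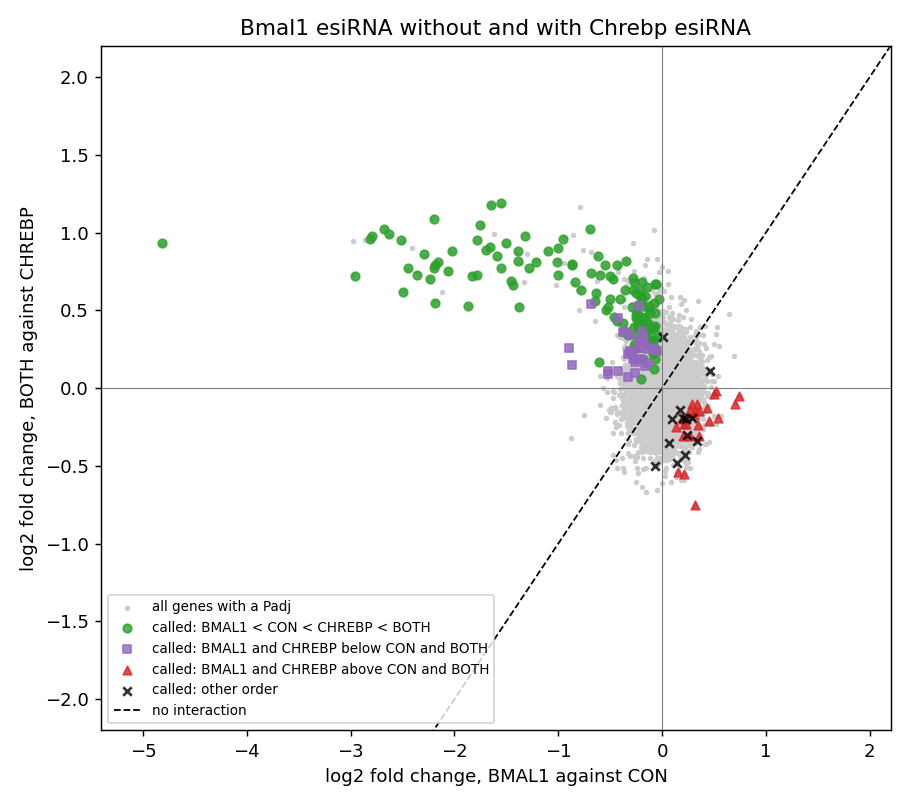
Log2 fold change of BOTH against CHREBP (y axis) plotted on that of BMAL1 against CON (x axis), which share no libraries. Grey points are genes with a *Padj*, coloured points are the 204 called genes by order of group means, and the dashed line marks no interaction. Green points (135 genes) spread to the left and above 0 and red points (25 genes) lie right of and below 0.

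The contrast can be read as the effect of *Bmal1* esiRNA with *Chrebp* esiRNA minus the effect without it. Of the 204 genes, 46 also passed the test in BMAL1 against CON, 81 passed it in BOTH against CHREBP, 2 passed both and 79 passed neither. Over all genes, BMAL1 against CON called 23 genes higher (0.271%) and 45 lower (0.529%), and BOTH against CHREBP called 117 higher (1.22%) and 21 lower (0.219%). The 68 calls in BMAL1 against CON were 16 to 32 without any 1 BMAL1 library or without CON replicate 2, 3 or 4, 40 without CHREBP replicate 3, 107 without CON replicate 1 and 14 in edgeR. The 138 calls in BOTH against CHREBP were 56 to 65 without CHREBP replicate 2, 3 or 4, 72 without BOTH replicate 2, 212 without CHREBP replicate 1, 222 without BOTH replicate 4 and 53 in edgeR. The directions of the simple effects were opposite for 166 of the 167 positive genes and for 35 of the 37 negative genes. The choice of genes by the difference of these effects favours opposite directions, so nothing is read from these counts. Over all fitted genes 26.3% had BMAL1 below CON with BOTH above CHREBP, and 25.8% had the reverse. The count of 204 interaction genes rested on single libraries: it was 122 without BMAL1 replicate 2, 129, 121 and 123 without CHREBP replicate 2, 3 and 4, and 112 and 104 without CON replicate 2 and 3. In edgeR's quasi-likelihood test 122 genes passed and in limma-voom 40. All 204 had the same sign in every refit, which the choice of these genes from the same libraries favours.

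Interferon-response genes made up the largest named group. The 10 interferon lists together held 131 fitted genes, of which 105 had a *Padj*. BOTH exceeded the additive expectation for 55 of them, and 1 (*Socs3*) fell short of it, a share of 53.3% against 2.19% over all genes. Counts of single interferon lists given below are read against the same 2.19%. The median interaction of the 131 genes was 1.25, against −0.0004 over all genes fitted. The 55 genes all had the order BMAL1, CON, CHREBP, BOTH. Among the 56 called genes the median log2 difference was −1.42 for BMAL1 against CON and 0.79 for BOTH against CHREBP, and the former was the larger in size for 42. CHREBP exceeded CON by a median of 2.41 in these genes. edgeR called 47 of the list genes and limma-voom called 6. The count was 28 to 37 without CON replicate 2 or 3, CHREBP replicate 3 or 4, BMAL1 replicate 2 or BOTH replicate 2, and 74 without CON replicate 1.

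CON replicate 1 and CHREBP replicate 1 stood apart in these genes. Averaged over the 55 called genes as log2 values centred per gene, which describes genes chosen by this contrast, CON replicates 1 to 4 stood at −2.46, −0.44, −0.37 and −1.15. The BMAL1 libraries stood at −2.33, −2.43, −2.32 and −2.06 and CON replicate 1 lay below all 4. CHREBP libraries stood at 1.98, 1.25, 1.02 and 0.98, and BOTH libraries at 1.79, 2.58, 2.19 and 1.79, with CHREBP replicate 1 inside the range of BOTH. Without CHREBP replicate 1 the interferon lists had 76 called genes.

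Untransfected palmitate cells, scaled with all 24 libraries, give the level without esiRNA. *Usp18* had a mean of 5.06 normalized counts there (2.64 to 10.1 over 4 libraries), against 52.9 in BMAL1, 366 in CON, 2680 in CHREBP and 5280 in BOTH on the same scale. *Ifit1* had 27.7 against 473 in BMAL1. *Mx2* had 2 counts and *Ifi44* 1 count over the 4 untransfected libraries. In these genes the mean levels were ordered from untransfected cells through BMAL1, CON and CHREBP to BOTH, and at each level of *Chrebp* esiRNA the 200 nM group was above the 100 nM group.

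*Usp18* (chr6:121245906-121270917), which removes ISG15 and dampens interferon receptor signalling, had an interaction of 3.77 (SE 0.80, *Padj* = 0.00186). Its counts were 35.5, 588, 570 and 291 in CON and 49.6, 48.5, 51.5 and 65.0 in BMAL1. They were 3970, 2480, 2080 and 2320 in CHREBP and 3960, 7440, 5280 and 4710 in BOTH. CON replicate 1 was below every BMAL1 library while the other 3 CON libraries were above them, and BOTH overlapped CHREBP at 1 library of each. The BOTH mean of 5350 ± 1500 (SD, n = 4) stood against an additive expectation of 392, a ratio of 13.7 in the fit. On the log2 scale most of this lay in the pair without *Chrebp* esiRNA, where BMAL1 differed from CON by −2.79 (*Padj* = 0.00132). BOTH differed from CHREBP by 0.98 (*Padj* = 0.655). In counts the larger step was in the pair with *Chrebp* esiRNA: means were 371 in CON and 53.6 in BMAL1, against 2710 in CHREBP and 5350 in BOTH.

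*Ifit1* (chr19:34640871-34650009), which binds viral RNA lacking a host cap, repeated that pattern at higher counts. Its 4 CON libraries held 364, 3200, 3290 and 1730 normalized counts and its BMAL1 libraries 465, 380, 494 and 580. The CHREBP libraries held 17800, 11200, 8950 and 11000, and the BOTH libraries 17900, 28200, 23100 and 16500. Its interaction was 2.97 (SE 0.69, *Padj* = 0.0066), and the BOTH mean of 21400 ± 5320 was set against an expectation of 2740. The neighbouring *Ifit3* (3.22, SE 0.77) and *Ifit3b* (3.15, SE 0.85) are near-identical copies whose reads may be shared by the counting.

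Further antiviral effectors had some of the largest interactions. Of 24 IFIT, Mx and other effector genes with a *Padj*, 17 were called, all above 0. *Ifi44*, of unclear function, reached 3.77 (SE 0.89), *Mx2*, a GTPase that restricts viral replication, 3.69 (SE 0.81), and *Trim30a* 3.61 (SE 1.12). *Cmpk2*, a nucleotide kinase, had 3.45 (SE 0.95) and its neighbour *Rsad2*, or viperin, 3.30 (SE 0.94). *Ifitm3*, which blocks viral entry and was chosen after its values were seen, had 2.97. *Trim30a* was called in 6 of the 16 fits that left out a library and *Rsad2* in 10, and *Mx2* and *Ifi44* in all 16. None of these 6 genes passed in limma-voom.

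Active OAS enzymes make 2′-5′ oligoadenylates that activate RNase L, whereas some family members lack this activity. Of the 6 genes of this list with a *Padj*, 4 were called. *Oas1b* had an interaction of 2.82 (SE 0.70, *Padj* = 0.0107), *Oasl1* of 2.43 (SE 0.60) and *Oasl2* of 3.12 (SE 0.85). *Oas3* is given by its levels only, because its 4 BMAL1 libraries held raw counts of 0, 0, 1 and 1. Its normalized means were 14.8 in CON, 230 in CHREBP and 436 in BOTH. The annotation lists *Oas1b*, like *Mx2*, as a polymorphic pseudogene, a gene that is intact in some mouse strains and disrupted in others. The paralogous members of this family share sequence, so the split of reads among them is uncertain.

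Of 14 sensors of foreign nucleic acid and their adaptors, 4 were called (28.6%, against 2.19% of all genes), all above 0. The other 10 did not pass (list median 0.36). *Ddx58*, which encodes RIG-I, had an interaction of 1.41 (SE 0.38, *Padj* = 0.0243), with 184 ± 76.8 normalized counts in CON and 107 ± 11.2 in BMAL1, against 456 ± 57.5 in CHREBP and 708 ± 116 in BOTH. *Ifih1*, encoding MDA5, had 1.67 (SE 0.46), and *Zbp1*, a sensor of Z-form nucleic acid that can start necroptosis, had 3.70 (SE 0.92). *Zbp1* was measured at 1.82 to 47.6 counts in CON and 2.16 to 6.88 in BMAL1.

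Among receptors, STATs and interferon regulatory factors, 5 of 19 genes had a positive call and 1 a negative call. *Irf7*, the amplifier of type I interferon transcription, had an interaction of 2.90 (SE 0.78, *Padj* = 0.0239). Its counts ran from 45.5 to 361 in CON and from 18.3 to 75.2 in BMAL1, which overlapped, and from 1090 to 2480 in CHREBP and 2260 to 3700 in BOTH, which overlapped too. *Socs3*, named after its values were seen, an inhibitor of cytokine receptor signalling induced mainly by IL-6-type cytokines, went the other way with −0.48 (SE 0.15, *Padj* = 0.0866): its means were 463 in CON and 566 in BMAL1, against 453 in CHREBP and 397 in BOTH. The *Socs3* call was lost in 11 of the 16 fits that left out a library and in edgeR. 

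Of 5 immunity-related GTPases with a *Padj*, 4 were called. *Irgm2* and *Irgm1* passed under every alternative tried, *Tgtp1* was lost in limma-voom, and *Igtp*, named after its values were seen, was lost in at least 1 fit that left out a library. *Irgm2* (chr11:58199618-58222782), a regulator of the effector GTPases, had 57.3, 145, 145 and 129 counts in CON, 35.8, 35.6, 46.6 and 56.6 in BMAL1, 566, 400, 338 and 345 in CHREBP, and 525, 811, 688 and 583 in BOTH. Its BMAL1 libraries were all below its CON libraries, with the highest BMAL1 value next to CON replicate 1. The interaction was 2.10 (SE 0.41, *Padj* = 0.000334). *Irgm2* overlaps *Igtp* on the same strand, so reads of the 2 genes can be confused. *Irgm1* had 1.04 (SE 0.25) and *Tgtp1* 2.55 (SE 0.63). For the guanylate-binding proteins 4 of 5 were called, among them *Gbp2* at 2.32 (SE 0.65), *Gbp4* at 2.59 (SE 0.81) and *Gbp9* at 1.67 (SE 0.49). *Gbp4* and *Gbp9* overlap each other, and were called in 4 and 7 of the 16 fits that left out a library.

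Of 16 class I antigen presentation genes with a *Padj*, 10 were called, and these 10 had the order BMAL1, CON, CHREBP, BOTH. For 6 of them the larger log2 difference lay in the pair with *Chrebp* esiRNA. Over all 10 the median difference was −0.30 for BMAL1 against CON and 0.67 for BOTH against CHREBP. *B2m* (chr2:122147686-122153083), the invariant light chain, had 12500, 15700, 16100 and 15100 counts in CON and 14400, 12500, 13400 and 12600 in BMAL1, which overlapped. It had 29500, 22900, 22800 and 23700 in CHREBP and 26100, 37700, 33300 and 33500 in BOTH, which overlapped at CHREBP replicate 1. The interaction was 0.57 (SE 0.15, *Padj* = 0.0172), made up of −0.16 in the pair without *Chrebp* esiRNA (*Padj* = 0.818) and 0.40 in the pair with it (*Padj* = 0.0217). The *B2m* call was lost in 2 of the 11 alternatives that kept all libraries, limma-voom among them. *Psme2*, a proteasome activator subunit, also had 0.57 (SE 0.14), and *Tap1*, the peptide transporter, 2.27 (SE 0.57). For *Tap1* the larger log2 difference was in the pair without *Chrebp* esiRNA (−1.39, against 0.88 in the pair with it). *Tap1* overlaps *Psmb9* on the opposite strand and strand use is not stated, so their reads cannot be told apart.

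The antiviral PARP list had 5 of 9 genes called. *Dtx3l*, a ubiquitin ligase, had 90.9, 153, 185 and 129 counts in CON, 114, 85.1, 68.9 and 96.5 in BMAL1, 600, 522, 375 and 366 in CHREBP and 687, 1040, 898 and 723 in BOTH. BOTH lay above CHREBP in all libraries, and BMAL1 overlapped CON. Its interaction of 1.47 (SE 0.34, *Padj* = 0.00727) passed under every alternative. *Parp12* had 1.82 (SE 0.48) and *Parp10* 1.25 (SE 0.33). *Dtx3l* overlaps *Parp9* on the opposite strand, as *B2m* does *Patl2* and *Psph*, described further on, does *Cct6a*, and *Parp10* overlaps *Plec* on the same strand. The interferon-induced chemokines *Cxcl10*, with 2.83 (SE 0.81), and *Cxcl9*, with 1.98 (SE 0.62), attract T cells. *Cxcl10* had 358 ± 253 counts in CON and 9470 ± 4560 in BOTH. *Cxcl10* was called in 11 and *Cxcl9* in 4 of the 16 fits that left out a library, and neither in limma-voom.

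**Figure D2:**
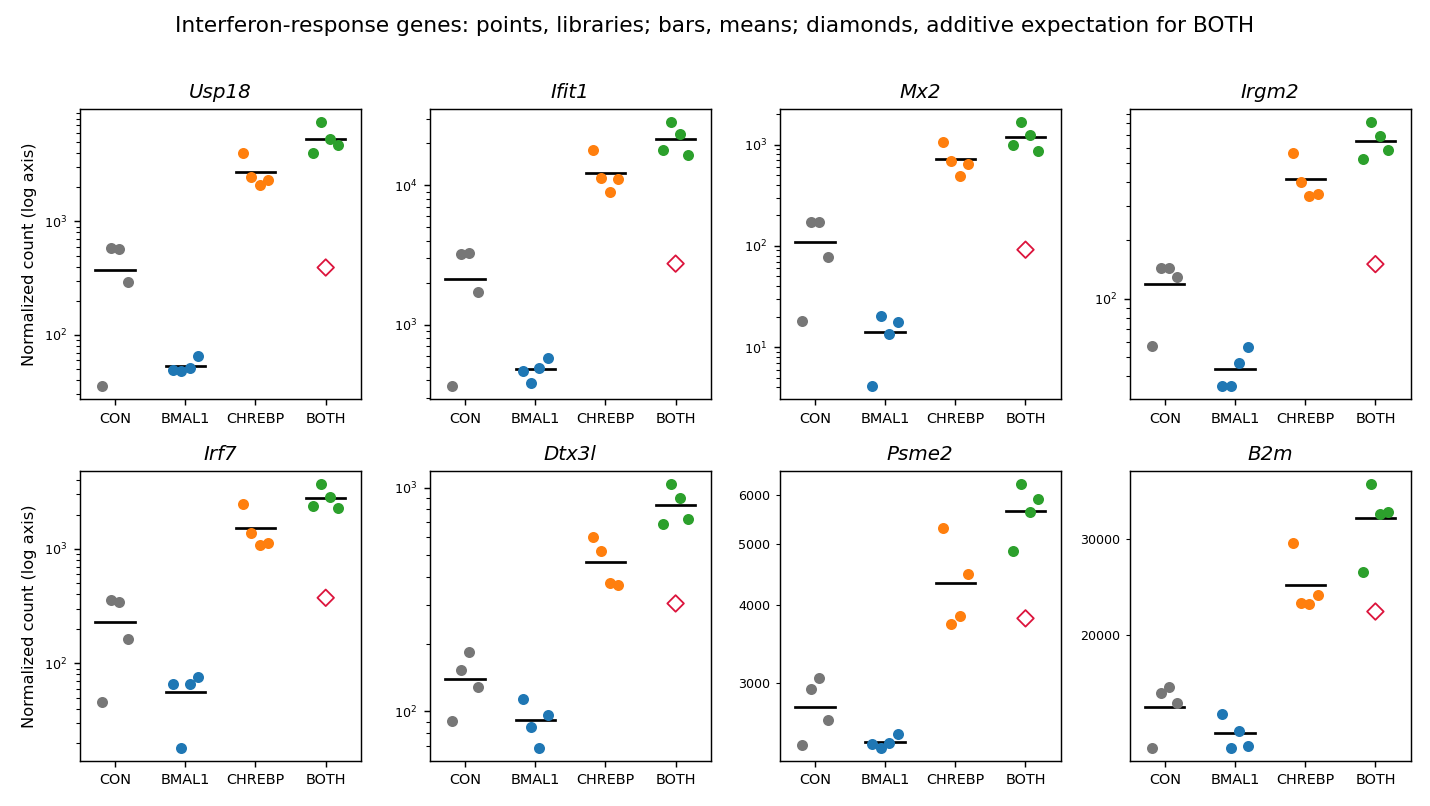
Normalized counts (log axis) of 8 interferon-response genes in the 4 groups. Each point is a library, bars are group means, and the open diamond is the additive expectation for BOTH. For *Usp18*, the diamond at 392 lies below every BOTH library (3960 to 7440), and CON replicate 1 (35.5) lies with BMAL1.

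The lowest *Padj* of all belonged to a gene outside the lists, chosen after its values were seen. *Lgals3bp* (chr11:118392751-118402092), a secreted glycoprotein induced by interferon, had 2790, 3750, 4030 and 3550 counts in CON and 2650, 2240, 2490 and 2490 in BMAL1. It had 7990, 5680, 5700 and 5980 in CHREBP and 7980, 9840, 9230 and 9170 in BOTH. BMAL1 lay below CON in all libraries, and BOTH lay above CHREBP except that CHREBP replicate 1 exceeded BOTH replicate 1. The interaction was 1.03 (SE 0.16, *Padj* = 4.41e-07), and *Lgals3bp* was 1 of 2 genes that passed the test on both sides, with −0.52 (*Padj* = 0.003) for BMAL1 against CON and 0.52 (*Padj* = 0.00195) for BOTH against CHREBP. The linear departure was 3780 ± 733 counts (SE).

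Other genes of the same order were also chosen after their values were seen. *Ppa1*, the cytosolic pyrophosphatase, had means of 338 ± 23.8 in CON and 286 ± 28.9 in BMAL1, against 396 ± 42.3 in CHREBP and 554 ± 23.7 in BOTH, an interaction of 0.73 (SE 0.14, *Padj* = 0.000302). All 4 of its BOTH libraries (536, 588, 548 and 542) were above the highest library elsewhere (450). *Csf1*, the macrophage growth factor, had 0.60 (SE 0.12) and *Mov10*, an RNA helicase, 0.70 (SE 0.14). *Cd274*, encoding the checkpoint ligand PD-L1, had 2.73 (SE 0.73) from low counts of 3.93 ± 1.40 in BMAL1 and 165 ± 73.9 in BOTH. *Il18bp*, which neutralizes IL-18, had 1.71 (SE 0.41). *Cd274* was called in 6 and *Il18bp* in 7 of the 16 fits that left out a library, and the other 3 in all 16.

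RefSeq promoter windows (250 bases before to 50 after each start site, GRCm38.p6, the same assembly as mm10) were searched on both strands for letters of known elements, as a description of what the called genes share. The 144 of 167 positive genes and 26 of 37 negative genes that matched a window by symbol were used. The ISRE-like letters GAAA and GAAA, separated by 2 bases of any kind, were in the window of 20 of 42 matched genes of the interferon lists (47.6%) and in 14 of 73 other genes of the order BMAL1, CON, CHREBP, BOTH (19.2%). Over all windows the share was 3.44%, and over 7447 matched genes with a *Padj* it was 3.64%. No matched gene with both singles below CON and BOTH (28 genes), and no negative gene, held these letters. Shares of genes here count a match in any window of the gene. The GAS-like letters TTCNNNGAA, which can overlap an ISRE-like match, were in 23.8% of the interferon-list genes, 7.79% of genes with a *Padj* and 8.30% of all windows. The kappaB-like letters GGG and TTTCC, separated by 2 bases of any kind, were in 5.56% of the positive genes, 1.91% of genes with a *Padj* and 1.63% of all windows. The E-box CACGTG, bound by BMAL1 and related factors, was in 8.33% of the positive genes and 19.2% of the negative genes (5 of 26), against 12.6% of genes with a *Padj* and 7.15% of all windows. The amino acid response letters TGATGNAA were in 4.17% of the positive genes and in none of the 26 matched negative genes. They were in 2.67% of genes with a *Padj* and 3.97% of all windows.

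Promoters of 4 interferon-response genes with the ISRE-like letters of either strand in capitals are shown because these genes were called together over a wide span of interactions, from *Ifit3* to *B2m*. Those of 2 chemokines described next, with the kappaB-like letters in capitals, are shown for contrast. Of 28 matched genes with both singles below CON and BOTH, these 2 alone held such letters (7.14%).
Ifit1 (chr19:34640639-34640938, plus strand): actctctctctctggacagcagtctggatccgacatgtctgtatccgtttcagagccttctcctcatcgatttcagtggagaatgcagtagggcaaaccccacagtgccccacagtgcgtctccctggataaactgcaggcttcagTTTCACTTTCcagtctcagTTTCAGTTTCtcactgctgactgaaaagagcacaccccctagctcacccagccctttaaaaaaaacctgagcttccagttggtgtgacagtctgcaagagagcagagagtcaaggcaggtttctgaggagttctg
Ifit3 (chr19:34583279-34583578, plus strand): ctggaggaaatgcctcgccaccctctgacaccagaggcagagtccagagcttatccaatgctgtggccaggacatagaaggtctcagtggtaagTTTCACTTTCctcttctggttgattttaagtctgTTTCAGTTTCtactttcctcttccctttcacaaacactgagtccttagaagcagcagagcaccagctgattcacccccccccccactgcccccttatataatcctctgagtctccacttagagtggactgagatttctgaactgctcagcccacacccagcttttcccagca
Irgm2 (chr11:58214727-58215026, plus strand): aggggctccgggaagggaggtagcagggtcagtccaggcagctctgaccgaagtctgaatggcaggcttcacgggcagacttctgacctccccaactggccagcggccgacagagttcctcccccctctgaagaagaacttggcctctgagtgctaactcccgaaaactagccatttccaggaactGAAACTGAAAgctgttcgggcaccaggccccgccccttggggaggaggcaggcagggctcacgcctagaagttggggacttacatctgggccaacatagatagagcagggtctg
B2m (chr2:122147437-122147736, plus strand): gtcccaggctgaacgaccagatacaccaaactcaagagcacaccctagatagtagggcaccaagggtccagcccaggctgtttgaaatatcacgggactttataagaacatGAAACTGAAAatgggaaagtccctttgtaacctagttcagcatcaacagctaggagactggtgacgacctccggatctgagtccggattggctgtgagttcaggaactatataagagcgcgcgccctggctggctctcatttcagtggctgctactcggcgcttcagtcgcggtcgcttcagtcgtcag
Ccl20 (chr1:83116516-83116815, plus strand): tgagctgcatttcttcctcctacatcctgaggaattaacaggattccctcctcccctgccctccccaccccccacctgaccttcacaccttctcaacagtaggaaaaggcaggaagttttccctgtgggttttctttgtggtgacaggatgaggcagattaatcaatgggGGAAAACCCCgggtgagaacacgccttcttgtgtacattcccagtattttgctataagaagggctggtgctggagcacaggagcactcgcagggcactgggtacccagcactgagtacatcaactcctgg
Ccl9 (chr11:83578587-83578886, minus strand): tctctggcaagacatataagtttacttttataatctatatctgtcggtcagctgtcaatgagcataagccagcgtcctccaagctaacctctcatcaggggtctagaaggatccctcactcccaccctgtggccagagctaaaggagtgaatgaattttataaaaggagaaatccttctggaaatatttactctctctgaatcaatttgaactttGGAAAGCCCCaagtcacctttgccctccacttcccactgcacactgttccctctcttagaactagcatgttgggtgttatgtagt
In both IFIT promoters a pair of matches stood close together, starting 104 bases before the *Ifit1* start site and 156 bases before that of *Ifit3*. The single match started 64 bases before the start site in *Irgm2* and 139 bases before it in *B2m*. A match is a string of letters and was not tested as a binding site.

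Of 8 inflammatory chemokines with a *Padj*, which recruit monocytes, lymphocytes and other leukocytes, 4 were called, all above 0, against 2.19% of all genes. The 13 fitted members had a median interaction of 0.25, with 10 above 0 and the lowest at −1.92. *Ccl20* (chr1:83116766-83119167), the ligand of CCR6, had 2550, 2690, 3010 and 2770 counts in CON and 1820, 1740, 1980 and 2130 in BMAL1. It had 2570, 2270, 2280 and 2510 in CHREBP and 2330, 2550, 2480 and 2900 in BOTH. BMAL1 was below the other 3 groups in every library, and CHREBP and BOTH overlapped. The interaction was 0.62 (SE 0.11, *Padj* = 0.000302), with the difference of BMAL1 from CON at −0.52 (*Padj* = 5.83e-07) and that of BOTH from CHREBP at 0.09 (*Padj* = 0.83). The additive expectation for BOTH was 1680 counts and the measured mean was 2570 ± 241.

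*Ccl9* (chr11:83572919-83578636), a macrophage chemokine, had 169, 184, 201 and 209 counts in CON. BMAL1 had 106, 101, 120 and 81.7, and CHREBP had 109, 91.6, 119 and 128. BOTH had 116, 115, 163 and 141, overlapping both single groups and below every CON library. Each esiRNA alone thus went with a level near that of both together, where additivity predicted 60.0 counts and 134 ± 22.6 were measured (interaction 1.16, SE 0.22, *Padj* = 0.000312). Untransfected palmitate cells had 83.7 counts (61.4 to 95.0) on the 24-library scale, below all 4 transfected groups. *Ccl2*, the main monocyte chemokine, had 6310 ± 411 in CON and 5860 ± 686 in BMAL1, against 7140 ± 602 in CHREBP and 9330 ± 640 in BOTH (0.49, SE 0.12, *Padj* = 0.00874). The neighbouring *Ccl7*, chosen after its values were seen, had 0.66 (SE 0.16). For *Ccl2* and *Ccl7* BOTH lay above every library of the other groups, whereas for *Ccl20* and *Ccl9* CON held the highest mean. All 4 calls held in every alternative.

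In the other inflammatory lists, read against 2.19% of all genes, the shares called were 5.26% (NF-kB), 30.0% (pyroptosis and necroptosis), 7.69% (BCL2 family), 12.5% (complement) and 0 (acute phase), each resting on at most 3 genes. *Tnfaip3*, the NF-kB feedback inhibitor A20, was the 1 gene called of 19 NF-kB genes, with 0.40 (SE 0.12, *Padj* = 0.0691). In the list of pyroptosis and necroptosis genes 3 of 10 were called: *Zbp1*, *Mlkl*, the executor of necroptosis, with 0.99 (SE 0.24), and *Gsdmd*, the pore-forming protein of pyroptosis, with 0.56 (SE 0.14). *Gsdmd* had 671 ± 38.1 in CON and 590 ± 34.0 in BMAL1, against 669 ± 92.4 in CHREBP and 864 ± 112 in BOTH. *Bid*, a BCL2-family death agonist, had 0.41 (SE 0.13, *Padj* = 0.0627), and the complement gene *C4b* 0.60 (SE 0.18, *Padj* = 0.0566). No acute phase gene was called in DESeq2 (5 of 11 fitted genes with a *Padj*, 1 of the 11 with an unadjusted p under 0.05), edgeR or limma-voom: *Lbp* had an interaction of −0.09 (SE 0.09) and *Crp* of −0.29 (SE 0.12). The calls for *Tnfaip3*, *Bid* and *C4b* were lost in edgeR and limma-voom.

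The EGF receptor ligand amphiregulin, *Areg* (chr5:91139599-91148432), a growth factor of injured epithelium, had 130, 86.3, 109 and 109 counts in CON and 64.7, 63.6, 82.5 and 58.5 in BMAL1. It had 123, 82.9, 95.9 and 72.9 in CHREBP and 121, 157, 132 and 133 in BOTH. The BMAL1 libraries were below all CON and BOTH libraries, and BOTH and CHREBP overlapped at 1 library of each. The interaction was 1.23 (SE 0.26, *Padj* = 0.00137) and the call was lost in the fit without CHREBP replicate 3 alone. *Btc*, betacellulin, a second ligand of the receptor, had 0.78 (SE 0.25, *Padj* = 0.0987) and was called in 4 of the 16 fits that left out a library and in 1 of the 11 other alternatives. These were the 2 called of 8 genes in that list (against 2.19% of all genes).

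The integrated stress response, run by ATF4, raises amino acid synthesis and transport and tRNA charging. In the list of its targets 5 of 21 genes were called (23.8%, against 2.19% of all genes), all above 0, and 21 of the 25 fitted genes had an interaction above 0, with a median of 0.29 against −0.0004 over all genes. *Psph* (chr5:129765558-129787449), the last enzyme of serine synthesis, had 1110, 1130, 1070 and 1190 counts in CON, 1060, 861, 923 and 1060 in BMAL1, 1180, 993, 1060 and 1090 in CHREBP and 1290, 1220, 1290 and 1370 in BOTH. All BOTH libraries lay above all others. The interaction was 0.46 (SE 0.11, *Padj* = 0.00859) and held under every alternative. *Phgdh*, the enzyme that starts serine synthesis, had 0.30 (SE 0.09, *Padj* = 0.0425), and *Nupr1*, a stress-induced regulator, 0.87 (SE 0.25, *Padj* = 0.0425).

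*Mthfd2*, of the mitochondrial folate cycle, had 0.46 (SE 0.14) and *Slc3a2*, a subunit of amino acid exchangers, 0.25 (SE 0.08), both named after their values were seen. In the list, *Psph* alone was called in edgeR and limma-voom among these 5 genes. Outside the list, *Cars*, *Mars1* and *Cth* were all chosen after their values were seen. *Cars* (chr7:143557230-143600090), a cysteinyl-tRNA synthetase, had 899, 901, 919 and 902 counts in CON, 734, 798, 807 and 767 in BMAL1, 827, 796, 859 and 864 in CHREBP, and 966, 1030, 946 and 1050 in BOTH. Its single groups lay below CON and BOTH above CON, with no overlap in either case. The interaction was 0.47 (SE 0.09, *Padj* = 0.000302). The methionyl-tRNA synthetase *Mars1* had group means of 743, 751 and 750 in CON, BMAL1 and CHREBP, and 945 ± 34.7 in BOTH (0.32, SE 0.09). *Cth*, which makes cysteine, had 0.65 (SE 0.19, *Padj* = 0.0558). For *Mars1* the difference of BMAL1 from CON was 0.01 and that of BOTH from CHREBP 0.33, so the departure lay in BOTH. The *Mars1* call was lost in edgeR, limma-voom and 4 of the 16 fits that left out a library, and the *Cth* call in edgeR, limma-voom and 3 of the 16.

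A further 4 genes with both singles below CON and BOTH were chosen after their values were seen. *Nop56*, a core protein of the box C/D snoRNP, had 395 ± 38.1, 316 ± 16.2, 386 ± 11 and 457 ± 18.2 counts in CON, BMAL1, CHREBP and BOTH (0.55, SE 0.13, *Padj* = 0.0047). *Nolc1*, a nucleolar chaperone, had 0.37 (SE 0.11), and its call was lost in edgeR, limma-voom and 5 of the 16 fits that left out a library. *Mif*, a cytokine-like tautomerase, had 3090 ± 164, 2570 ± 163, 2890 ± 117 and 3240 ± 168 (0.43, SE 0.09, *Padj* = 0.00116). *Ybx3*, a cold-shock domain RNA-binding protein, had 0.42 (SE 0.09, *Padj* = 0.00186). None of 39 ribosomal protein genes was called in DESeq2, edgeR or limma-voom, 1 had an unadjusted p under 0.05, and their interactions ran from −0.17 to 0.17.

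Negative departures were fewer, and 32 of the 37 genes were in no list. Their number was 91 without BOTH replicate 4, 13 to 22 without BMAL1 replicate 1, 2 or 4, CHREBP replicate 2, 3 or 4, or CON replicate 2 or 3, 9 in edgeR and 4 in limma-voom. *Nrep*, a small protein of regenerating neurons, had 470, 465, 414 and 457 counts in CON, 534, 500, 527 and 537 in BMAL1, 396, 366, 395 and 452 in CHREBP and 319, 252, 286 and 334 in BOTH. BMAL1 lay above CON and BOTH lay below CHREBP with no overlap in either pair. The interaction was −0.65 (SE 0.14, *Padj* = 0.00137), with 0.22 (*Padj* = 0.494) for the former pair and −0.43 (*Padj* = 0.00431) for the latter. *Mmp14* (chr14:54431612-54445364), a membrane-bound matrix metalloproteinase, had 227, 222, 230 and 278 in CON, 332, 292, 221 and 264 in BMAL1, 285, 284, 266 and 299 in CHREBP and 192, 190, 223 and 170 in BOTH. BMAL1 and CON overlapped, whereas BOTH lay below CHREBP throughout (interaction −0.76, SE 0.18, *Padj* = 0.00602). Both calls held under every alternative.

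In other negative genes the departure lay in the pair without *Chrebp* esiRNA. *Mgst2* (chr3:51660360-51682677), a microsomal glutathione transferase, had 122, 121, 113 and 146 counts in CON, 231, 228, 207 and 171 in BMAL1, 165, 128, 161 and 174 in CHREBP and 152, 146, 126 and 180 in BOTH. BMAL1 exceeded CON in every library by a log2 difference of 0.74 (*Padj* = 0.000514) and BOTH differed from CHREBP by −0.05 (*Padj* = 0.98), an interaction of −0.79 (SE 0.20, *Padj* = 0.0169). It was the 1 gene called of 22 NRF2 and glutathione genes (4.55%, against 2.19% of all genes). *Ttr*, the transthyretin gene of hepatocytes, had 1360 ± 37.5, 1870 ± 140, 1230 ± 115 and 1330 ± 17.9 (−0.35, SE 0.10, *Padj* = 0.0485), with BMAL1 above all other libraries. The *Ttr* call was lost in 3 of the 11 alternatives that kept all libraries, edgeR among them, and in 8 of the 16 fits that left out a library.

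*Mt1*, a metal-binding protein induced by zinc and glucocorticoid and chosen after its values were seen, was low in BOTH alone. Its means were 2130 ± 99.0, 2020 ± 193 and 1940 ± 100 in CON, BMAL1 and CHREBP and 1380 ± 58.0 in BOTH. BOTH differed from CHREBP by −0.50 (*Padj* = 2.18e-08), and the interaction was −0.42 (SE 0.10, *Padj* = 0.00745). The remaining genes with the most negative interactions had higher *Padj*. *N4bp2os* had −1.08 (SE 0.30, *Padj* = 0.0341) and overlaps *N4bp2* on the opposite strand, so their reads cannot be told apart. *Ppm1m*, a protein phosphatase, had −0.80 (SE 0.26, *Padj* = 0.0993), *Gm6169* −0.73 (SE 0.22) and *Ncapd2*, a condensin subunit, −0.69 (SE 0.22, *Padj* = 0.0993). *Tnfaip8l1* (−0.68, SE 0.20), *Bud13*, a splicing factor (−0.67, SE 0.21), and *Deptor*, an mTOR inhibitor (−0.67, SE 0.20), completed the set. None of these 7 passed in limma-voom, and in the fits that left out a library they were called 3 to 10 times of 16.

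**Figure D3:**
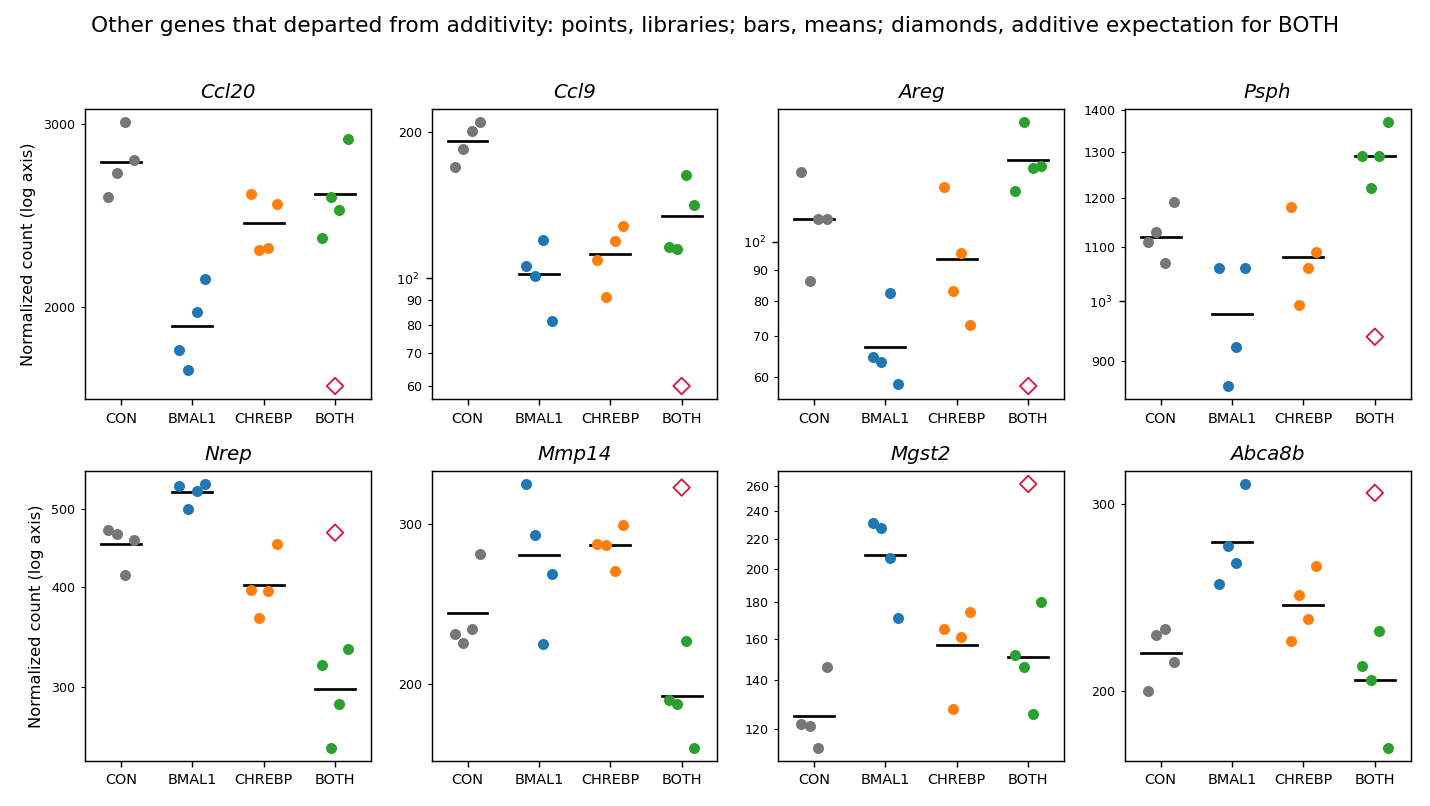
Normalized counts (log axis) of 8 genes outside the interferon lists. Points are libraries, bars are group means and open diamonds mark the additive expectation for BOTH. The diamond lies below all BOTH libraries in the upper row (1680 against 2330 to 2900 for *Ccl20*) and above all of them in the lower row (329 against 170 to 223 for *Mmp14*).

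For metabolic functions, which *Bmal1* and *Chrebp* are known to control, the called share was near that of genes in no list at this depth. The metabolism lists held 164 genes with a *Padj*, of which 2 were called (1.22%). The share was 2.19% over all genes and 1.45% over genes in no list. *Nampt*, the rate-limiting enzyme of NAD salvage and a clock output, had 1.07 (SE 0.30, *Padj* = 0.0351) with the order of the interferon genes: 370 ± 91.6 in CON and 261 ± 29.2 in BMAL1, against 837 ± 184 in CHREBP and 1240 ± 258 in BOTH. CON replicate 1 (234) lay below every BMAL1 library (237 to 298) there, while the other CON libraries were at 395 to 428. The *Nampt* call was lost in 2 of the 11 alternatives that kept all libraries, limma-voom among them, and in 5 of the 16 fits that left out a library. *Abca8b*, a lipid transporter, had 200, 226, 229 and 213 counts in CON, 252, 274, 264 and 313 in BMAL1, 223, 246, 234 and 262 in CHREBP and 211, 205, 228 and 177 in BOTH. BMAL1 lay above CON in all libraries. The interaction was −0.58 (SE 0.16, *Padj* = 0.0222), and it passed under all alternatives except limma-voom.

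No gene was called among 28 genes of cholesterol synthesis and uptake, 19 of fatty acid and triglyceride synthesis, 19 of fatty acid oxidation, 11 of lipid droplets, 19 of glycolysis and gluconeogenesis, 30 of the respiratory chain or 10 of the ChREBP list, in DESeq2, edgeR or limma-voom. At an unadjusted p under 0.05 there were 1, 1, 2, 2, 1, 1 and 0 of the fitted members of these lists. The medians of these lists ran from −0.04 to 0.14. *Npc2*, a lysosomal cholesterol carrier, had an interaction of 0.04 (SE 0.11) and *Ebp*, of sterol synthesis, −0.01 (SE 0.08). *Scd2*, a fatty acid desaturase, had −0.18 (SE 0.11) and *Me1*, which supplies NADPH, 0.19 (SE 0.09). *Acadl* and *Acot1*, of mitochondrial oxidation and acyl-CoA hydrolysis, had 0.09 (SE 0.08) and −0.12 (SE 0.10). *Plin2*, the lipid droplet coat protein, had 0.16 (SE 0.08) and *Rab18* 0.07 (SE 0.07). *Gapdh* and *Aldoa* had 0.20 (SE 0.19) and 0.08 (SE 0.09), and *Atp5b* and *Ndufa4* 0.14 (SE 0.09) and 0.02 (SE 0.09). With these errors, departures as small as the smallest called one (0.20) were not detectable for most of them.

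The ChREBP targets *Txnip* and *Pklr* had 0.15 (SE 0.12, *Padj* = 0.812) and −0.15 (SE 0.17, *Padj* = 0.885), and *Gpd1* had −0.01 (SE 0.12). In the core clock none of 8 genes was called in DESeq2 (1 at an unadjusted p under 0.05), edgeR or limma-voom, with *Csnk1d* and *Csnk1e* at −0.07 (SE 0.10) and −0.09 (SE 0.09). Among other genes the study followed further, *Abca1*, the cholesterol exporter, had 35 ± 11.2, 47.3 ± 9.58, 32.9 ± 4.99 and 23.6 ± 4.25 counts (−0.93, SE 0.39), and *Igf1* had 22.7 ± 8.64, 34.4 ± 3.84, 17.9 ± 2.69 and 15.2 ± 1.29 (−0.88, SE 0.47); neither received a *Padj*. *Lbh* had −0.53 (SE 0.27, *Padj* = 0.548), *Foxa1* 0.21 (SE 0.23, *Padj* = 0.885) and *Klf10* −0.12 (SE 0.15, *Padj* = 0.904).

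For comparison with the remaining lists, 1079 of all 13883 fitted genes had an unadjusted p under 0.05. None of 20 chaperone genes, 30 lysosome and autophagy genes, 33 replication and mitosis genes, 21 immediate early genes or 25 matrix genes was called in DESeq2, edgeR or limma-voom, and 1, 4, 1, 4 and 3 of their 22, 30, 34, 25 and 28 fitted members had an unadjusted p under 0.05. *Hsp90b1* and *Canx* had −0.02 (SE 0.13) and −0.05 (SE 0.10), *Ctsb* and *Ctsd* 0.16 (SE 0.09) and −0.04 (SE 0.11), *Mcm6* and *Mcm7* 0.18 (SE 0.10) and 0.04 (SE 0.10), *Fn1* and *Sparc* −0.08 (SE 0.07) and −0.12 (SE 0.10), and *Myc* and *Junb* 0.26 (SE 0.09, *Padj* = 0.114) and 0.10 (SE 0.09). The IGF list had a median of −0.22, with 2 of its 12 fitted members above 0. *Igfbp4* was the 1 gene called of its 7 with a *Padj* (14.3%, against 2.19% of all genes) at −0.29 (SE 0.09, *Padj* = 0.0691), and the call was lost in edgeR. Of the markers of other cell types, *Cd14* had 0.04 (SE 0.14) and *Krt19* −0.18 (SE 0.13).

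**Figure D4:**
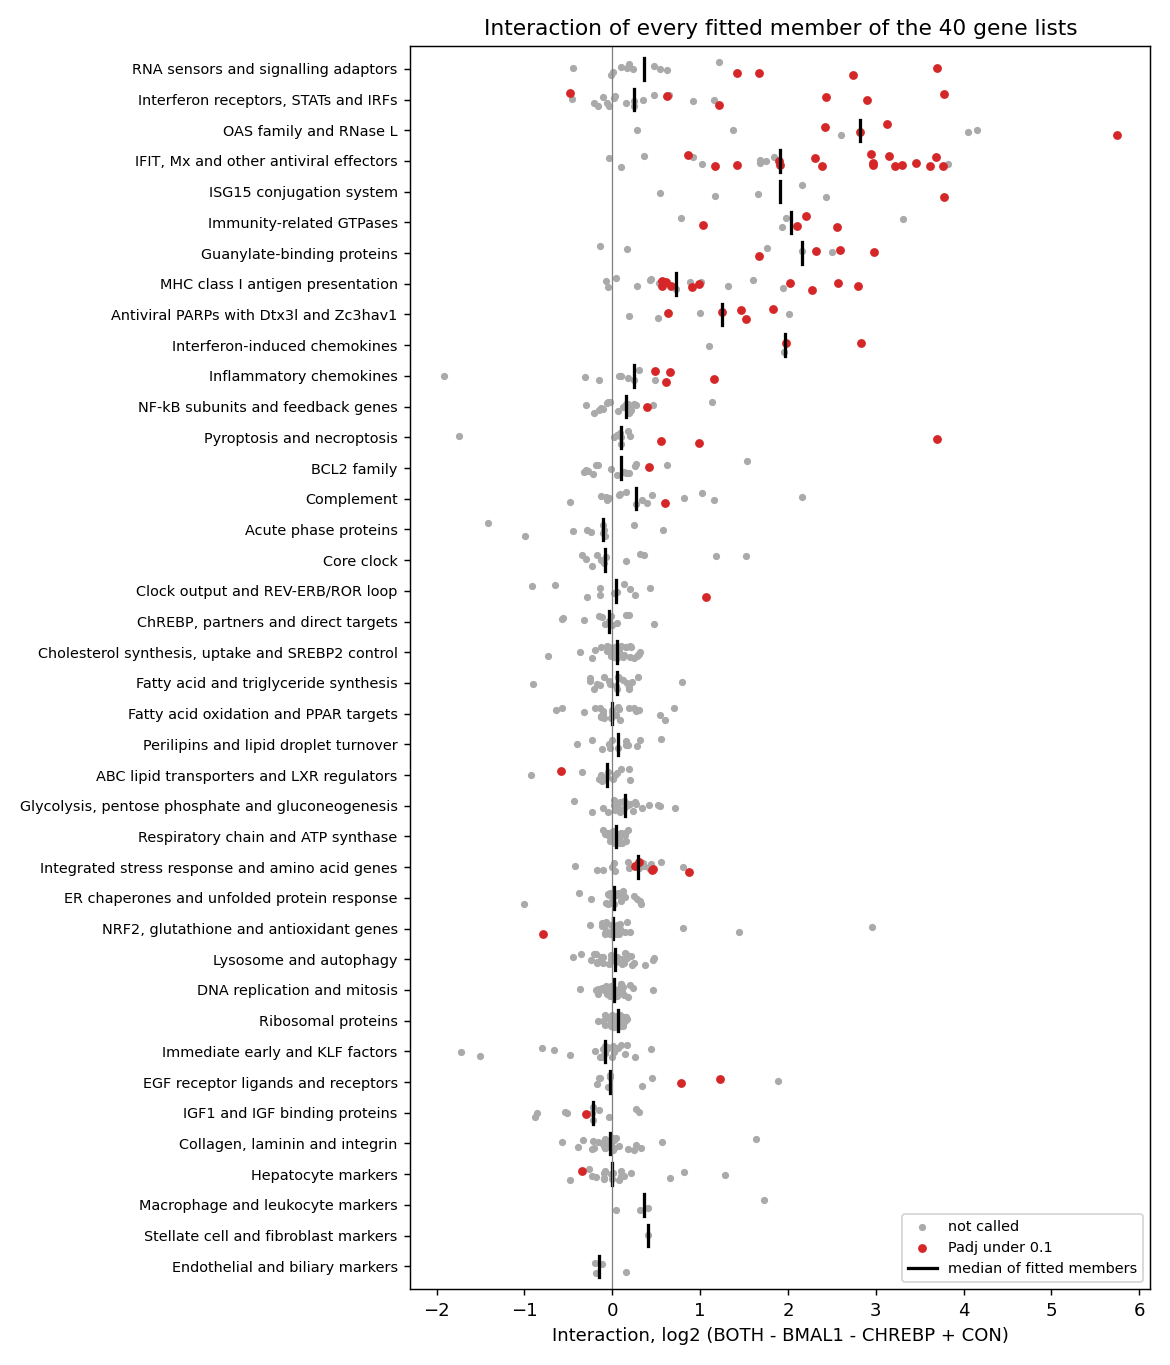
Interaction on the log2 scale (x axis) of every fitted member of the 40 gene lists (rows). Red points are genes with *Padj* under 0.1, grey points are not called and black bars are list medians. The interferon lists at the top have medians from 0.25 to 2.82, and the metabolic lists lie from −0.08 to 0.14.

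Outside all lists, 127 of 8736 genes were called (1.45%), 95 above and 32 below 0, and 71 of them shared the order BMAL1, CON, CHREBP, BOTH. The lists do not hold every interferon-induced gene, and these 71 include *Lgals3bp*, *Ifi47*, *Ifi203*, *Ifi204* and *Ifi202b*. The count of 71 is thus no measure of departures beyond the interferon response. Of all 204 called genes, 83 stayed called in each of the 16 fits that left out a library. Genes that also passed under the 11 other alternatives included *Lgals3bp*, *Irgm1*, *Irgm2*, *Dtx3l*, *Psme2*, *Ppa1*, *Csf1*, *Mov10*, *Ccl2*, *Ccl7*, *Ccl9*, *Ccl20*, *Psph*, *Cars*, *Nop56*, *Mif*, *Ybx3*, *Mt1*, *Nrep* and *Mmp14*.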

How the data were processed

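RNA was measured by BRB-seq, a barcoded method that counts 3′ ends, in AML-12 cells. Per the labels and the study's methods, reads were aligned to mm10 with STAR and assigned to genes with HTSeq (featureCounts is also named); versions, strand use and molecular identifiers are not given in the sources used here. The deposited values are raw counts per gene as the authors made them. Rows that name no gene were left out, among them 24.91 to 27.47% of reads not aligned and 5.108 to 6.471% in no feature. Samples were grouped by their esiRNA label.

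Genes whose counts summed to 25 or more over the 16 libraries were fitted in DESeq2 1.42.0 (R 4.3.3) with 1 mean per group, and the contrast BOTH − BMAL1 − CHREBP + CON was tested with the two-sided Wald test and Benjamini-Hochberg adjustment (*Padj* under 0.1). Normalized counts are raw counts divided by DESeq2 size factors, and values after ± are SDs over 4 libraries unless called SE. edgeR 4.0.16, limma 3.58.1, other filters and scalings, a replicate block and fits without each library were alternatives. The fitting code was tested on simulated data. Replicate pairs differed by more than counting noise (chi-square per degree of freedom 2.695 to 23.11). Same-numbered libraries deviated together little on average (mean correlation 0.0192, single pairs −0.284 to 0.319, mean 0.102 for replicate 2). Numbers were therefore not treated as pairs, and a replicate block was an alternative.

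The groups, the 40 gene lists and the comparison were chosen with earlier results of these data known. Named genes were *Arntl* and *Mlxipl*, the 10 most positive and 10 most negative called genes (mean of at least 50 normalized counts, summed count of at least 12 in each group), up to 3 called members per list by *Padj*, the 2 most abundant members of lists without calls, and genes the study names, 104 in all, a few of which are not reported here. Genes added after their values were seen are marked so. Gene positions are from GENCODE M21 and promoters from RefSeq.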

Additional observations from a re-analysis of the deposited data

Results flagged for a closer look

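Among the named called genes, 22 of 320 groups of 4 held a library far from the other 3 by Dixon's criterion, where chance gives about 1 in 20. CHREBP replicate 1 stood high in *Ifi44* (759, others 305 to 356), *Zbp1* (308, others 117 to 136), *Ifit3* (7350, others 3420 to 3810), *Ifit3b* (6930, others 2760 to 3190), *Oas1b* (385, others 174 to 185) and *Tgtp1* (307, others 142 to 159). It was also high in *Oasl1* (1290, others 586 to 694), *Tap1* (403, others 202 to 222), *Irgm1* (6390, others 4340 to 4570), *Lgals3bp* (7990, others 5680 to 5980), *Csf1* (1500, others 1280 to 1300) and *B2m* (29500, others 22800 to 23700), and low in *Ppm1m* (99.8, others 123 to 125). BMAL1 libraries stood low in *Irf7* (replicate 2, 18.3, others 66.0 to 75.2), *Parp10* (replicate 1, 96.4, others 150 to 161), *Mov10* (replicate 3, 282, others 317 to 324) and *N4bp2os* (replicate 4, 53.8, others 70.9 to 74.4). CON libraries stood apart in *Nampt* (replicate 1, 234, others 395 to 428), *Cars* (replicate 3, 919, others 899 to 902), *Nolc1* (replicate 4, 1470, others 1370 to 1380) and *Mmp14* (replicate 4, 278, others 222 to 230). BOTH replicate 1 was high in *Tnfaip8l1* (148, others 111 to 113). The interferon genes among these moved together, so the flags are not independent.

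The difference of BOTH from CHREBP departed from that of BMAL1 from CON, by the interaction test, for 204 genes, 167 positive and 37 negative, a contrast that cannot be told apart from that of the total esiRNA dose. The largest interactions among named genes were those of *Ifi44* (3.77), *Usp18* (3.77), *Zbp1* (3.70), *Mx2* (3.69), *Trim30a* (3.61), *Cmpk2* (3.45), *Rsad2* (3.30), *Ifit3* (3.22), *Ifit3b* (3.15) and *Oasl2* (3.12), apart from *Oas3*, whose fitted value rests on 2 counts in BMAL1. The most negative were those of *N4bp2os* (−1.08), *Ppm1m* (−0.80), *Mgst2* (−0.79), *Mmp14* (−0.76), *Gm6169* (−0.73), *Ncapd2* (−0.69), *Tnfaip8l1* (−0.68), *Bud13* (−0.67), *Deptor* (−0.67) and *Nrep* (−0.65).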

How the results depend on the processing

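All 204 called genes kept their sign in every alternative, but the alternatives reuse the libraries that chose these genes, which favours a kept sign. Of them, 116 were shared with edgeR's quasi-likelihood test and 40 with limma-voom. edgeR called 122 genes (9 negative), 14 in BMAL1 against CON and 53 in BOTH against CHREBP, where DESeq2 called 68 and 138. limma-voom called 40, of which 36 were positive and 4 negative. The negative genes numbered 16 at *Padj* under 0.05 and 22 without independent filtering. Other scalings and filters gave 168 to 237 called genes, and the cause of these differences was not tested.

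With 1 library left out, the called genes numbered 104 to 291, the positive 88 to 240 and the negative 13 to 91. The negative count was 91 without BOTH replicate 4, and 13 to 22 without BMAL1 replicate 1, 2 or 4, CHREBP replicate 2, 3 or 4, or CON replicate 2 or 3. BMAL1 against CON gave 16 to 107 genes, with 107 without CON replicate 1, 40 without CHREBP replicate 3, and 16 to 32 without any BMAL1 library or CON replicate 2, 3 or 4. BOTH against CHREBP gave 56 to 222 genes, with 222 without BOTH replicate 4, 212 without CHREBP replicate 1, 72 without BOTH replicate 2, and 56 to 65 without CHREBP replicate 2, 3 or 4. Among 44 named genes without a call, 12 changed sign under some alternative and 1 became called.

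Replicate numbers were not treated as pairs in the main fit. A replicate block called 147 genes, 119 positive and 28 negative, of which 140 were among the 204; it called 22 in BMAL1 against CON and 100 in BOTH against CHREBP, and 37 interferon-list genes in place of 56. Of the named genes, *B2m*, *Nampt*, *Rsad2*, *Oasl2*, *Trim30a*, *Cxcl9*, *Cxcl10*, *Gbp4*, *Gbp9*, *Cd274*, *Il18bp*, *Bid*, *Btc*, *Slc3a2*, *Bud13*, *Tnfaip8l1* and *N4bp2os* were among those not called under the block. Counting noise at these totals and 4 libraries per group limit what low-count genes such as *Arntl*, *Mlxipl*, *Abca1* and *Igf1* can show.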
